A study of Mus musculus with 13 samples.

Results

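The interleukin-1 (IL-1) family and inflammasome genes Il1a, Il1b, Il1rn, Il1r1, Il1r2, Il1f9, Il18, Nlrp3 and Casp1 were followed through the cell classes of a mouse single-cell RNA matrix. They were chosen by symbol and are 9 of the 31053 genes in the matrix. All 9 were detected in lung cells, with a range from 2549 UMIs for Il1f9 to 140745 UMIs for Il1b. A unique molecular identifier (UMI) stands for 1 captured RNA molecule. Barcodes with at most 10% of their UMIs from mitochondrial genes were used.

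The labels list 13 samples, all of mouse lung. By title, 4 are Asthma, Control, PPE-emphysema and PPE-recovery, and the other 9 are Acute, Con and emphysema samples numbered 1 to 3. Asthma was induced with ovalbumin and emphysema with PPE (porcine pancreatic elastase, an enzyme that digests elastin) given into the trachea of C57BL/6 mice. By the study's account emphysema mice had PPE weekly and recovery mice had 1 instillation, and acute injury mice were taken after the first. The study describes single-cell sequencing of asthma, emphysema, recovery and control lungs, with 1 mouse for each group, and bulk RNA sequencing besides. No age is in the sources used here. The matrix pools 7 libraries, told apart by a number after the barcode, and no label ties a library to a sample. The disease groups therefore could not be compared. No label says which libraries come from separate mice, so libraries were not used as replicates, their values are given singly, and no test was run.

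IL-1α and IL-1β are cytokines that bind the receptor IL-1R1 and start inflammatory signaling. IL-1Ra, the product of Il1rn, occupies the same receptor without a signal, and IL-1R2 is a decoy that binds IL-1 without signaling. The inflammasome sensor NLRP3 activates caspase-1, which cuts the inactive precursors of IL-1β and IL-18 into their secreted forms, so that RNA levels alone do not show how much active cytokine is released.

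Several members are neighbors in the genome (mm10, the GRCm38 assembly, GENCODE M21 annotation). Il1a (chr2:129299610-129309972, minus strand) and Il1b (chr2:129364570-129371139, minus strand) have 54.6 kb between them. Il1f9 (chr2:24186476-24193568, plus strand) and Il1rn (chr2:24336853-24351494, plus strand) lie elsewhere on the same chromosome, 143 kb apart. The receptor genes Il1r2 (chr1:40074079-40125231) and Il1r1 (chr1:40225080-40317257) are both on the plus strand with 99.8 kb between them. Il18 (chr9:50554827-50581840), Casp1 (chr9:5298517-5307265) and Nlrp3 (chr11:59541568-59566956) are on the plus strand. All 9 are protein-coding genes.

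The promoters of 3 members are printed because their genes had different class patterns: Il1b and Il1f9 were highest in neutrophils, whereas the Il1a level of neutrophils overlapped that of alveolar macrophages. Each run is the 250 bases before the RefSeq start, 5′ to 3′ on the gene's own strand (GRCm38.p6), and none overlaps an annotated exon. Capitals mark a match to the C/EBP motif TTNNGNAA, which was searched on both strands.
Il1b (chr2:129371140-129371389, minus strand): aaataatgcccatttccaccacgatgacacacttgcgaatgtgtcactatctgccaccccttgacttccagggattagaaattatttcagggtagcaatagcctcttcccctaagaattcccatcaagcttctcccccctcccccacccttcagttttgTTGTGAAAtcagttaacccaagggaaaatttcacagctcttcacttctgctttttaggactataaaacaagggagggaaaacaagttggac
Il1a (chr2:129309973-129310222, minus strand): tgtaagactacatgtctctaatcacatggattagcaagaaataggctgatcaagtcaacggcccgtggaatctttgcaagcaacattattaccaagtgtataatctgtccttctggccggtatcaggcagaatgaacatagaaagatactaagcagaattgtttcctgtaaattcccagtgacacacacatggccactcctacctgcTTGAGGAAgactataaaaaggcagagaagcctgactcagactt
Il1f9 (chr2:24186226-24186475, plus strand): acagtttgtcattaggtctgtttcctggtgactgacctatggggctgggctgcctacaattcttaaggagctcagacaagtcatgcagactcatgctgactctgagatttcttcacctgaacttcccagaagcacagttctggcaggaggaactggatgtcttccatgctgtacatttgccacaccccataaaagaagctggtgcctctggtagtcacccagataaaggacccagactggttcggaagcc
The Il1b window held 1 match, from -91 to -84, the Il1a window held 1 match, from -43 to -36, and the Il1f9 window held none. Of 32851 promoter windows of the same length, 36.8% held at least 1 such match. The NF-kappaB consensus was found in 1 window each of Nlrp3 and Il1r1, from -186 and from -232, against 7.25% of all windows. The PU.1 motif AGGAAGT was in no window of the 9 members, against 7.69% of all windows. These matches are a description of letters and were not set against expression. Windows were found for all 9 members.

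The 7 libraries fell into 2 sets by genes outside the list. Libraries 1, 2, 3 and 7 carried the alveolar type 2 marker Sftpc at 2653 to 9425 CPM (counts per 1e+06 UMIs) and are called lung libraries here. Libraries 4, 5 and 6 had Sftpc at 0 to 0.0646 CPM and the hemoglobin gene Hbb-bs at 158499 to 200045 CPM, although every label says lung, and they are called hemoglobin-rich. Of 37344 barcodes 33618 were kept, 20856 of them in lung libraries, with a median of 7542.5 UMIs per kept lung barcode. Each library held 29701569 to 79439569 UMIs. Between any pair of libraries 2 to 17 barcode sequences were shared, at most 0.367% of the smaller library. Main values are from the lung libraries alone, and the hemoglobin-rich libraries are set beside them where both held the class.

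Cells were clustered within each library without the 9 members or their pathway genes, and clusters were named from marker lists. The lung libraries gave 1643 neutrophil-like, 5344 macrophage-like, 2421 monocyte-like, 1261 dendritic-like and 1995 stromal-like cells. Stromal-like cells were fibroblasts (1688) and smooth muscle cells or pericytes (307), and 8.99% of lung cells stayed unnamed. The neutrophil-like cells had all 11 of 11 neutrophil markers above 10 CPM, with a summed level of 104857 to 110010 CPM by library. The same list summed to 501 to 1177 CPM in macrophage-like, 276 to 1673 CPM in monocyte-like, 24.1 to 310 CPM in dendritic-like and 25.6 to 176 CPM in stromal-like cells. Since the lists named the clusters, these sums are no separate check of the names. In neutrophil-like cells the nonclassical monocyte list summed to 1012 to 1820 CPM, against 1837 to 2898 CPM in monocyte-like cells. The classical monocyte list summed to 361 to 1244 CPM, against 6082 to 7514 CPM, and the immature neutrophil list to 1686 to 5156 CPM. Neutrophil-like cells were also the shallowest of these classes, with a median of 2856 UMIs against 13247.5 in macrophage-like cells. Doublets were not removed for the main values.

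Levels are CPM of the summed UMIs of a class in a library, with exact 95% Poisson intervals, and shares of cells carry exact binomial intervals. These intervals describe counting error alone. A member was counted as high in a class when its CPM was at least 4-fold that of all other kept cells of the same library in every lung library. By this measure neutrophil-like cells were high for 5 of the 9 members (Il1b, Il1f9, Il1r2, Il1rn and Nlrp3), against 2.25% of the 15896 genes with at least 50 UMIs. Macrophage-like cells were high for Il18 alone (background 1.28%) and stromal-like cells for Il1r1 alone (background 8.19%). No member was high in monocyte-like (background 0.761%) or dendritic-like cells (background 1.01%), so that Il1a and Casp1 were high in none of the 5 classes. For these classes the other kept cells include the neutrophil-like cells. Those held 63.1% of Il1b, 86.1% of Il1f9, 78.4% of Il1r2, 31.7% of Nlrp3 and 25% of Il1rn UMIs. A member high in neutrophil-like cells was therefore harder to call in another class, and its ratio there was lower. Without library 7, Il1a and Il1rn joined Il18 as high in macrophage-like cells, which made 3 members. The median log2 ratio of the members to the other cells was 3.51 in neutrophil-like cells, against -1.09 over all genes tested. It was 0.26 in macrophage-like cells against -0.40, -2.02 in monocyte-like cells against -0.69, -0.38 in dendritic-like cells against -0.55, and -4.12 in stromal-like cells against -0.05.

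**Figure D1:**
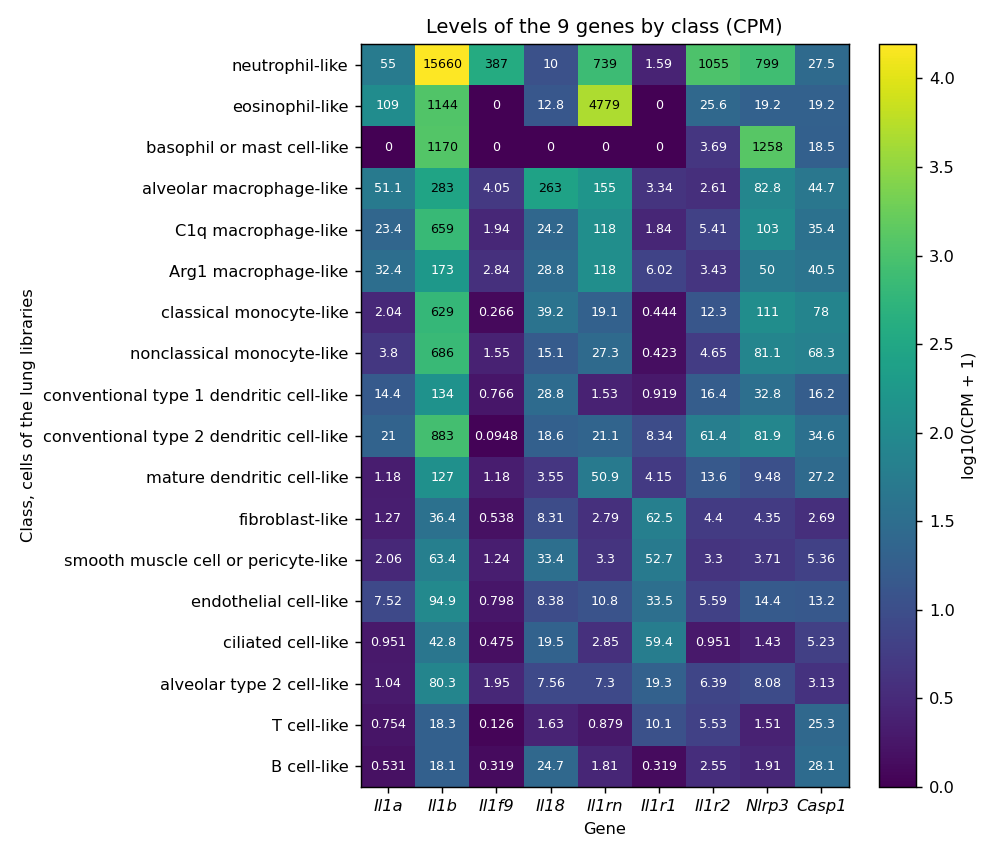
Heat map of the level of each member in selected cell classes over the 4 lung libraries, with the CPM printed and color on a log scale. Il1b, Il1r2 and Il1f9 are highest in neutrophil-like cells, Il18 in alveolar macrophage-like cells and Il1r1 in fibroblast-like cells.

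Il1b, the gene of the main secreted IL-1, was carried above all by neutrophils. Its level in neutrophil-like cells was 15593 CPM in library 1, 17485 in library 2, 14946 in library 3 and 14977 in library 7. The range over the 4 lung libraries was narrow next to the gap to any other class, and the pooled level of 15660 CPM (95% interval 15557 to 15763) was 58.6 times that of all other cells (57.9 to 59.2). The neutrophil-like cells were 7.88% of lung cells and held 63.1% of all Il1b UMIs. In macrophage-like cells, which were 25.6% of the cells and held 16.2% of the Il1b UMIs, the level was 383, 416, 181 and 193 CPM in libraries 1, 2, 3 and 7. Monocyte-like cells stood above macrophage-like cells in every lung library, at 590, 660, 725 and 612 CPM. In library 7 all monocyte-like values come from 1 cluster of 86 cells. It was named nonclassical, but the classical markers Vcan and F13a1 were among its leading genes.

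Dendritic-like cells were divided for Il1b. Type 2 conventional dendritic cells, antigen-presenting cells marked here by Cd209a, had 808, 999 and 549 CPM in libraries 1, 2 and 7, or 837 CPM pooled (816 to 858). Type 1 conventional dendritic cells had 134 CPM (126 to 143) and mature dendritic cells 127 CPM (110 to 145). In library 3 a single cluster, at 995 CPM, was named type 2 but held markers of both types, with Cd209a at 262 CPM and the type 1 marker Xcr1 at 154 CPM. Xcr1 was at 1.82 to 5.15 CPM in the type 2 cells of the other lung libraries, so that library 3 gives no separate type 2 value. With it included the type 2 level was 883 CPM. Among macrophages, C1q macrophages had 659 CPM (476 to 852 by library) and alveolar macrophages 283 CPM (144 to 402), and these ranges did not overlap. The pooled levels of nonclassical monocytes (686 CPM), C1q macrophages and classical monocytes (629 CPM) had overlapping intervals from each neighbor to the next. Stromal-like cells were at 8.8 to 62 CPM by library, T cells at 18.3 and B cells at 18.1 CPM. Some other classes outside the myeloid lineage were higher and nearer to the type 1 and mature dendritic cells. Lymphatic endothelial cells had 102 CPM, endothelial cells 94.9 CPM and alveolar type 2 cells 80.3 CPM.

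Because Il1b is so abundant in neutrophils, RNA released by them could carry its counts into other droplets, and its level elsewhere was set beside that of S100a8 and Retnlg, 2 neutrophil genes. B cells had 0.115% of the neutrophil-like level of Il1b, 0.0816% of that of S100a8 and 0.0705% of that of Retnlg. In stromal-like cells the same values were 0.251% for Il1b, 0.111% for S100a8 and 0.0877% for Retnlg. In B cells Il1b was close to the other 2 genes in library 7 alone (0.173% against 0.195% and 0.179%) and above both in libraries 1, 2 and 3, at 0.0446% to 0.126%. The share of cells with Il1b in these 2 classes overlapped that of T cells after thinning. Their low levels are not read here as expression, and the source of the counts was not tested in any class. Endothelial and epithelial cells, where Il1b was higher, were not set beside S100a8 and Retnlg. In type 2 conventional dendritic cells of libraries 1, 2 and 7 Il1b stood at 5.19% of the neutrophil-like level, with S100a8 at 0.0165% and Retnlg at 0.0127%. Monocyte-like cells had 4.16% for Il1b against 0.1% for S100a8 and 0.0476% for Retnlg, and macrophage-like cells 2.01% against 0.396% and 0.158%. In those 3 classes Il1b was therefore above the share of either neutrophil gene, also in each single lung library.

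Most single neutrophils had the transcript. After every cell was thinned to 1000 UMIs, which left out 62 of the neutrophil-like cells, 96.8% of 1581 neutrophil-like cells had an Il1b UMI (95.8% to 97.6%), and 97.5% did before thinning. The thinned share was 33.5% in monocyte-like, 21.3% in dendritic-like and 17.4% in macrophage-like cells. It was 2.22% in stromal-like cells (1.61% to 2.98%), 1.83% in T cells (1.15% to 2.76%) and 1.41% in B cells (0.865% to 2.17%), and these 3 intervals overlap. Before thinning, the shares were 65.1%, 45%, 49.3%, 13.3%, 7.43% and 6.52% in the same order, so that the rank of dendritic-like and macrophage-like cells depended on depth.

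**Figure D2:**
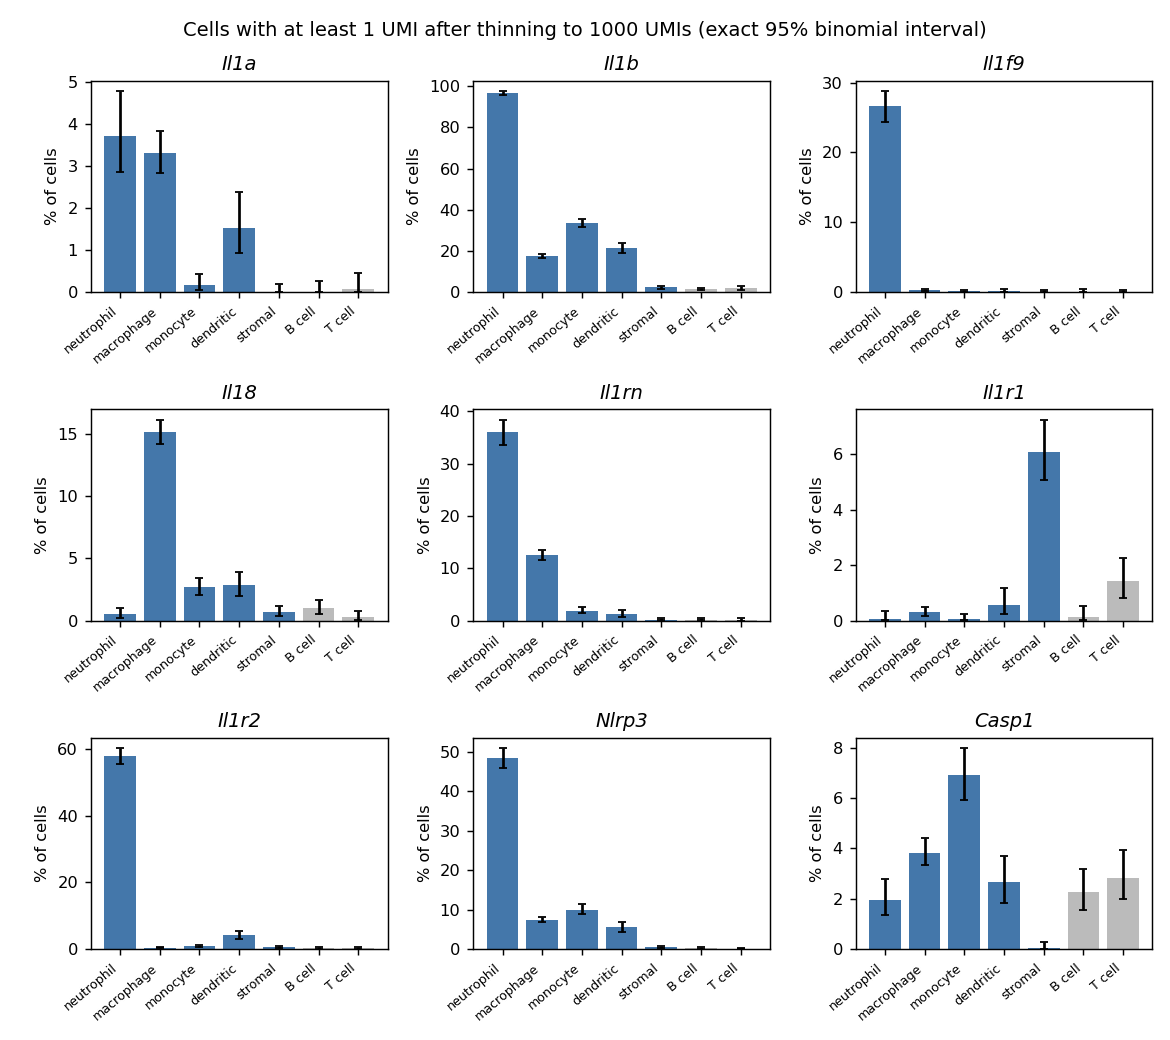
Percent of cells with at least 1 UMI of each member after thinning each cell to 1000 UMIs, lung libraries pooled, with exact 95% binomial intervals. For Il1b the share is 96.8% in neutrophil-like cells and 33.5% in monocyte-like cells, and B cells at 1.41% show the level in a class outside the myeloid lineage.

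Il1a, the gene of the membrane-bound and alarm-like IL-1, lacked the steady neutrophil excess of its neighbor Il1b. Over the 69 class-by-library units described below, the 2 genes still had a Pearson r of 0.702. Il1a had 142, 20.6, 40.6 and 91.7 CPM in neutrophil-like cells of libraries 1, 2, 3 and 7. In macrophage-like cells it had 36.9, 52.9, 64 and 26 CPM. Neutrophil-like cells were thus the higher class in libraries 1 and 7 and the lower class in libraries 2 and 3. In library 1 the value came from 40 UMIs, found in 9.28% of 97 cells. In library 7 the higher value rested on the Ccl4-led cluster described below with Il1rn, since the other neutrophil-like cells of that library had 22 CPM. Eosinophil-like cells, found in library 7 alone, had the highest class level, 109 CPM (63.3 to 174) from 17 UMIs. The pooled levels of neutrophil-like cells (55 CPM) and alveolar macrophages (51.1 CPM) overlapped within counting error, and macrophage-like cells held 76.3% of the Il1a UMIs. Dendritic-like cells had 16.9 CPM, monocyte-like cells 2.72 CPM and stromal-like cells 1.36 CPM. In monocyte-like cells Il1a was therefore low although Il1b was not.

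Il1f9, which encodes the IL-36γ cytokine of the same family, had the highest ratio of neutrophil-like to other cells among the 9. It had 340, 276, 252 and 684 CPM in neutrophil-like cells of libraries 1, 2, 3 and 7. The pooled ratio to other cells was 211 (189 to 237), and 86.1% of its UMIs came from neutrophil-like cells. By library that ratio was 728, 100, 335 and 228, since the other cells hold few counts. The next class was alveolar macrophages at 4.05 CPM. There it was present in libraries 2 and 7 and at or near 0 in libraries 1 and 3, as was also so for macrophage-like cells as a whole (0.317, 7.01, 0.742 and 4.28 CPM). After thinning, 26.6% of neutrophil-like cells and 0.0707% of B cells had an Il1f9 UMI.

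Il18, the other cytokine that caspase-1 cuts, was a macrophage gene here and not a neutrophil gene. In macrophage-like cells it had 110, 209, 410 and 104 CPM in libraries 1, 2, 3 and 7, which was 12.2 times the level of other cells (11.6 to 12.8). The ratio was 11.3, 13.8, 20.1 and 5.68 by library, lowest in library 7. Within the class, alveolar macrophages carried it at 233, 237, 440 and 154 CPM, whereas C1q macrophages had 15.4, 37.7, 35.5 and 19 CPM. The ranges of these 2 macrophage types did not overlap. Arg1 macrophages, named from a marker list that holds arginase 1, had 15.9 and 12.2 CPM in libraries 1 and 7. They had 147 CPM in library 2, where the class was 1 cluster of only 61 cells. That cluster was led by Fabp4, a marker of alveolar macrophages here, and Arg1 was not among its 10 leading genes. Fabp5 and Gpnmb, which are on the Arg1 macrophage list, were among them. Classical monocytes followed alveolar macrophages at 39.2 CPM, and neutrophil-like cells had 10 CPM and T cells 1.63 CPM. Macrophage-like cells held 87.4% of Il18 UMIs, and 22.7% of thinned alveolar macrophages had one against 0.989% of B cells.

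**Figure D3:**
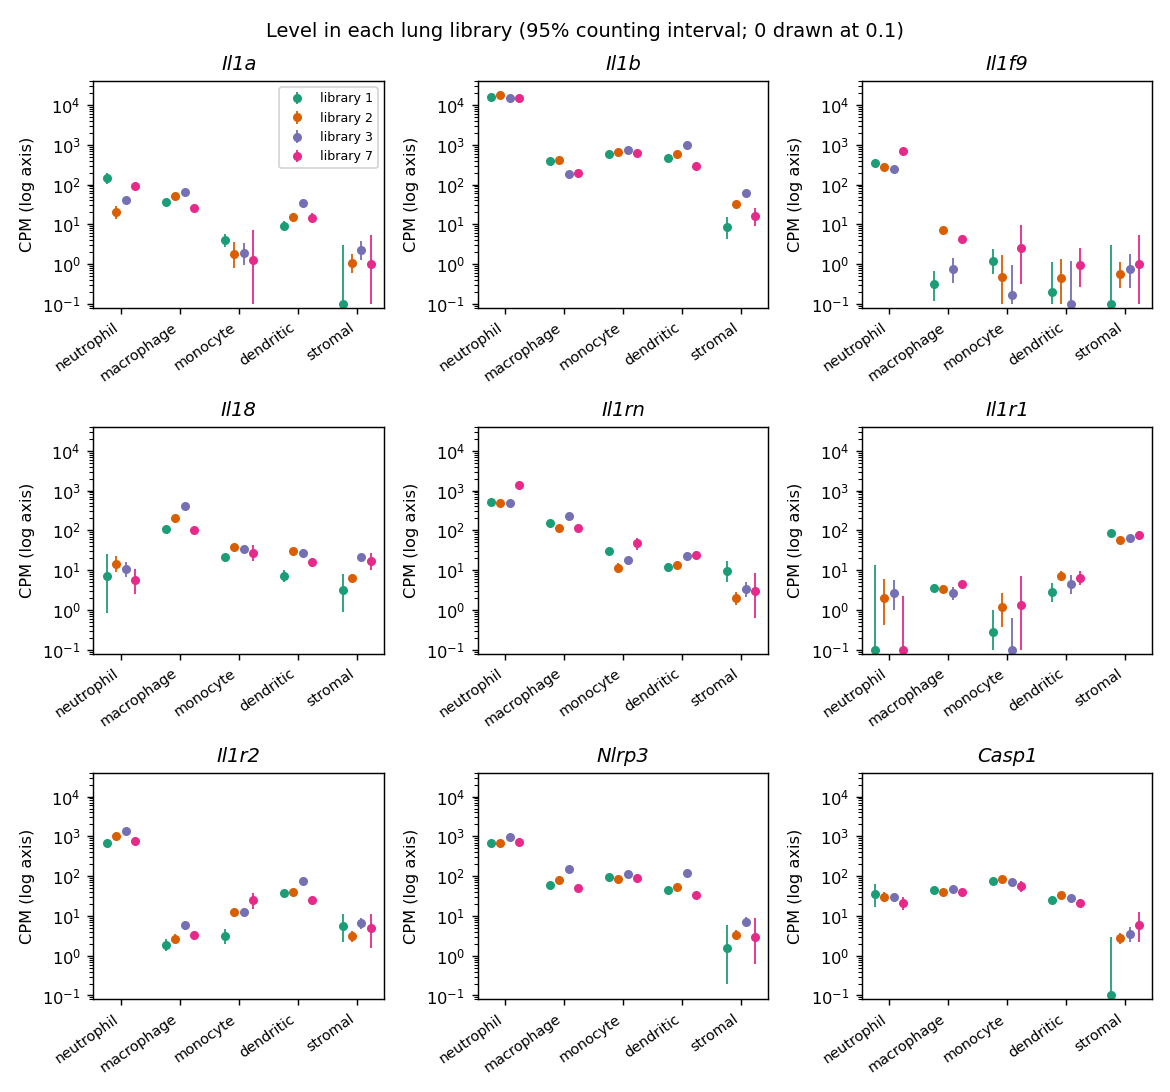
Level of each member in the 5 main classes, with 1 point for each lung library, in CPM on a log axis. Il1b in neutrophil-like cells spans 14946 to 17485 CPM, while Il1a spans 20.6 to 142 CPM in the same cells.

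Il1rn, the gene of the receptor antagonist, was spread over several myeloid classes. Neutrophil-like cells had 517, 495, 482 and 1361 CPM in libraries 1, 2, 3 and 7, so that 3 libraries were close together and library 7 was far above. Macrophage-like cells had 155, 115, 228 and 113 CPM. Neutrophil-like cells stood above macrophage-like cells in each lung library, but macrophage-like cells, being more and deeper, held 62% of Il1rn UMIs against 25%. The highest level of all was in eosinophil-like cells of library 7, at 4779 CPM (4443 to 5135, 748 UMIs). Those 213 cells were found as a class in library 7 alone and were shallow, with a median of 561 UMIs, and after thinning 27 of the 30 deep enough, or 90% (73.5% to 97.9%), had an Il1rn UMI. Monocyte-like cells had 22.3 CPM, dendritic-like cells 17 CPM and stromal-like cells 2.84 CPM. Mature dendritic cells stood out among dendritic cells with 50.9 CPM, against 1.53 CPM in type 1 conventional dendritic cells.

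The library 7 value came largely from 1 cluster. That cluster had 147 cells with a median of 2412 UMIs and was led by Ccl4, Csf1 and Ccl3. The members Il1f9 and Il1rn were also among its 10 leading genes. None of the neutrophil markers was among them, although 9 were detected. It had Il1rn at 4453 CPM against 358 CPM in the other 350 neutrophil-like cells of library 7, a ratio of 12.4 (11.2 to 13.8). Il1a was at 307 against 22 CPM, a ratio of 13.9 (9.12 to 22), and Il1f9 at 1254 against 500 CPM, a ratio of 2.51 (2.22 to 2.83). Il1b went the other way, at 8383 against 17117 CPM, or 2.04-fold lower (1.97 to 2.12). Il1r2 (668 against 804 CPM) and Nlrp3 (631 against 743 CPM) were close. The receptor antagonist and Il1a were thus past 4-fold within the cluster, 2 of the 9 members against 5.44% of the 3435 genes with enough counts. Since Il1rn and Il1f9 are among the genes that lead the cluster, their ratios describe it and are no separate result.

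Neutrophil markers moved with these values. In the Ccl4-led cluster S100a8 was at 13165 against 51040 CPM, Retnlg at 480 against 7746 CPM and Ly6g at 5.03 against 109 CPM. Other neutrophil genes were nearer, with Cxcr2 at 1571 against 2029 CPM and Csf3r at 1917 against 3118 CPM. The chemokine gene Ccl4 was at 11114 against 171 CPM. Whether the cluster is a neutrophil state or holds other cells was not tested. Without it, an alternative chosen after seeing the data, the log2 ratio of Il1rn in neutrophil-like cells to other cells was 2.82 instead of 3.51 and Il1rn was no longer 4-fold higher in every library, which left 4 members.

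**Figure D4:**
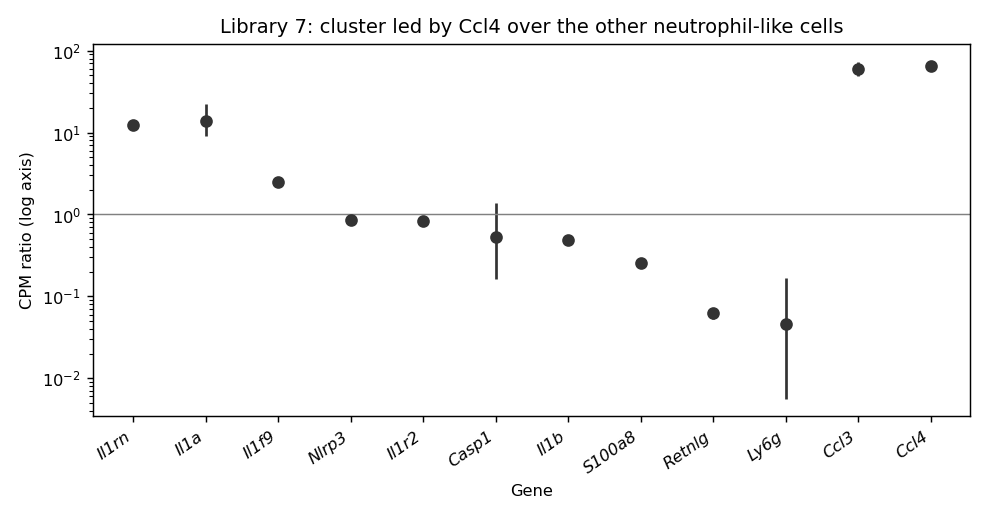
Ratio of the CPM in the Ccl4-led cluster of 147 cells to that in the other 350 neutrophil-like cells of library 7, on a log axis, with exact 95% intervals for counting error. Il1rn and Il1a lie above 10, Il1b at 0.49, and the neutrophil markers S100a8, Retnlg and Ly6g below 1.

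The receptors were divided between cell types. Il1r2, the decoy, was at 673, 1015, 1334 and 771 CPM in neutrophil-like cells of libraries 1, 2, 3 and 7, or 124 times the level of other cells (118 to 132). Neutrophil-like cells held 78.4% of its UMIs. The next class was type 2 conventional dendritic cells with 55.9, 58.6 and 51.5 CPM in libraries 1, 2 and 7, and 74 CPM in the mixed cluster of library 3. The level was 6.45% of the neutrophil-like level in libraries 1, 2 and 7, against 0.0165% for S100a8. Macrophage-like cells had 3.12 CPM. Monocyte-like cells had 3.15, 12.4, 12.8 and 24.8 CPM in libraries 1, 2, 3 and 7. After thinning, 58% of neutrophil-like cells had an Il1r2 UMI, from 44.1% in library 1 to 70% in library 3.

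Il1r1, the signaling receptor, was found in stromal, endothelial and epithelial cells and was low in neutrophils and monocytes. Stromal-like cells had 87.1, 57.6, 62.7 and 76.1 CPM, a ratio to other cells of 6.91 (6.43 to 7.43). Fibroblasts (62.5 CPM), ciliated airway cells (59.4 CPM) and smooth muscle cells or pericytes (52.7 CPM) had overlapping intervals. Endothelial cells, at 37.2, 40.4, 22.6 and 35.7 CPM, came next. Stromal-like cells held 47.2% and endothelial cells 16.9% of Il1r1 UMIs. The endothelial values leave out an unnamed cluster of 961 cells in library 2 with 158 Il1r1 UMIs, at 28 CPM. Its leading genes Sema3g and Gpihbp1 also led endothelial clusters of libraries 1 and 3. In neutrophil-like cells 9 UMIs in all were found, or 1.59 CPM, and in monocyte-like cells the level was 0.436 CPM. T cells had 10.1 CPM and B cells 0.319 CPM. After thinning, 6.09% of stromal-like cells (5.07% to 7.25%) had an Il1r1 UMI, 1.42% of T cells and 0.141% of B cells, and 43.2% of stromal-like cells did at full depth. With all cells thinned, or with single cells gated on Col1a2 and Dcn in place of clusters, Il1r1 was no longer 4-fold higher in every lung library, and its share of 1 in 9 members is near the background of the stromal comparison. All other members were at or below 0.124 times the level of other cells in stromal-like cells, which had no Casp1 UMI in library 1 and at most 5.93 CPM elsewhere.

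Nlrp3, the inflammasome sensor, was again a neutrophil gene among the 5 main classes. It had 691, 700, 939 and 715 CPM in neutrophil-like cells of libraries 1, 2, 3 and 7, or 15.9 times the level of other cells (15.3 to 16.5). Monocyte-like cells had 97.4, 82.7, 115 and 88.7 CPM and macrophage-like cells 60.7, 81.3, 149 and 50.6 CPM, which overlap. Macrophage-like cells held 40.6% of Nlrp3 UMIs and neutrophil-like cells 31.7%. A class outside these 5 was higher still: basophils or mast cells had 1553 CPM (1342 to 1788) in library 1 and 1856 CPM (1555 to 2198) in library 3. In library 2 they had 188 CPM (103 to 315). The class held 35, 19 and 17 cells in libraries 1, 2 and 3. Its Il1b divided in the same way, at 1690 CPM (1469 to 1934), 26.9 CPM (3.25 to 97) and 1454 CPM (1189 to 1760), so that library 2 stood apart for both genes. After thinning, 48.4% of neutrophil-like, 10% of monocyte-like and 0.212% of B cells had an Nlrp3 UMI.

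Casp1, which encodes the protease that the inflammasome activates, was highest in monocytes and lowest in fibroblasts and epithelial cells. Monocyte-like cells had 74.8, 83.4, 69.3 and 56.1 CPM, or 2.8 times the level of other cells. Classical (78 CPM, 73 to 83.4) and nonclassical monocytes (68.3 CPM, 62.4 to 74.7) overlapped. Alveolar type 2 cells had 3.13 CPM and fibroblasts 2.69 CPM. Macrophage-like cells had 42.8 CPM, and dendritic-like (27.6), B (28.1) and T cells (25.3) were close to each other. Neutrophil-like cells had 35.4, 30, 29.6 and 20.9 CPM. Their pooled ratio to other cells was 0.887 (0.752 to 1.04), so that Casp1 did not share the excess of Il1b and Nlrp3 in these cells. After thinning, 6.91% of monocyte-like cells (5.93% to 8%) and 1.96% of neutrophil-like cells had a Casp1 UMI, near the 2.26% of B cells.

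Within single neutrophils the members were often found together. Of 1581 neutrophil-like cells thinned to 1000 UMIs, 57.5% had UMIs of both Il1b and Il1r2. Il1b was found with Nlrp3 in 47.9% and with Il1rn in 34.5%. Since 96.8% had Il1b, these shares follow the shares of the second gene, and they were not tested. Il1b and Il1a were found together in 3.67%.

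The list of pathway genes was compared in the same way. Of 40 genes listed, 36 were in the matrix. Neutrophil-like cells were high for 5 of them, Il1rap, Il18rap, Mefv, Gsdme and Tnfaip3, against the background of 2.25%. Macrophage-like cells were high for 1, Il1rl2 (background 1.28%), monocyte-like cells for 1, Mefv (background 0.761%), and dendritic-like and stromal-like cells for 0. The median log2 ratio over the list was 0.47, 0.37, 0.54, -0.08 and -0.72 in neutrophil-like, macrophage-like, monocyte-like, dendritic-like and stromal-like cells. Over all genes tested it was -1.09, -0.40, -0.69, -0.55 and -0.05 in the same order, so that the median of the list was above that of all genes in each class but the stromal-like one. In neutrophil-like cells it stayed below the 3.51 of the 9 members.

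Among receptor partners, Il1rap, the accessory chain shared by IL-1 family receptors, had 103, 119, 102 and 208 CPM in neutrophil-like cells of libraries 1, 2, 3 and 7, and 17.3 CPM in macrophage-like cells. Il18rap, the accessory chain of the IL-18 receptor, had 195, 160, 154 and 227 CPM in neutrophil-like cells and 716 CPM in basophils or mast cells. The IL-18-binding chain Il18r1 was instead at 16.4 CPM in neutrophil-like cells, 182 CPM in T cells and 343 CPM in basophils or mast cells. Il1rl2, the receptor for IL-36, was at 38.6, 38, 37.9 and 29 CPM in macrophage-like cells and at 1.23 CPM in neutrophil-like cells, where Il1f9 was highest. It was also at 15.6 CPM in dendritic-like and 15.2 CPM in stromal-like cells.

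Among inflammasome partners, Pycard, which encodes the adaptor ASC, had 46.7 CPM in neutrophil-like cells against 167 CPM in macrophage-like and 216 CPM in monocyte-like cells. The noncanonical caspase gene Casp4 was at 118 CPM in neutrophil-like and 62.4 CPM in monocyte-like cells. Gsdmd, the pore-forming gasdermin cut by these caspases, had 61.5 CPM in neutrophil-like, 87.5 CPM in monocyte-like and 30.6 CPM in macrophage-like cells. Mefv, the pyrin sensor, had 94.3 CPM in neutrophil-like, 46.8 CPM in monocyte-like and 4.37 CPM in macrophage-like cells. Thus Casp1, Gsdmd and Pycard were highest in monocyte-like cells among the 5 classes, and Nlrp3, Mefv and Casp4 in neutrophil-like cells. Tnfaip3, the A20 inhibitor of NF-kappaB signaling, had 861, 594, 719 and 784 CPM in neutrophil-like cells.

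The hemoglobin-rich libraries held 752 neutrophil-like cells, deeper than those of the lung libraries, with a median of 6447.5 UMIs. Their shallowest kept barcodes had 5735, 3439 and 3946 UMIs in libraries 4, 5 and 6, against 304 to 501 in the lung libraries. The lung neutrophil-like median of 2856 UMIs is below each of these 3 limits. The ratios below thus compare cells of unlike depth, and the part of depth in them was not tested. Their Il1b was at 1073, 2413 and 1442 CPM in libraries 4, 5 and 6. The lowest lung library was 6.19 times the highest of these, and the pooled ratio was 9.77 (9.56 to 9.99). Il1r2 was at 41.7, 126 and 154 CPM, a pooled ratio of 9.86 (9.05 to 10.8). Nlrp3 was at 74.1, 141 and 126 CPM, a ratio of 7.1 (6.51 to 7.74). Il1rn was at 49.4, 116 and 126 CPM, a ratio of 7.65 (6.98 to 8.4). All 4 of these were lower in each hemoglobin-rich library than in any lung library. Il1a had no UMI there. With 3 counts over the group taken as the limit of a count of 0, the pooled lung neutrophil-like level was at least 97-fold higher. The lowest lung library, at 20.6 CPM, was at least 10.8 times the highest limit of a single hemoglobin-rich library.

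Other members did not follow this division. Il1f9 was at 194, 264 and 326 CPM in the hemoglobin-rich libraries, inside the lung range of 252 to 684 CPM in 2 of 3, with a pooled ratio of 1.47 (1.38 to 1.58). Casp1 had a pooled ratio of 0.774 (0.622 to 0.962) and Il18 one of 1.36 (0.891 to 2.1), both with overlapping libraries. In all, 4 members (Il1a, Il1b, Il1r2 and Nlrp3) had a lowest lung library at least 4-fold above the highest hemoglobin-rich one, against 1.38% of 8035 genes. With Il1rn, 5 members did not overlap, against 18.9% of genes. Of the pathway list only Tnfaip3 is given here, and it divided likewise, at 6.04, 9.58 and 13.7 CPM in libraries 4, 5 and 6. It is 1 of 36 genes and is not read as a result about the list. The other pathway genes were not compared between the sets, so no share of the list is given.

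**Figure D5:**
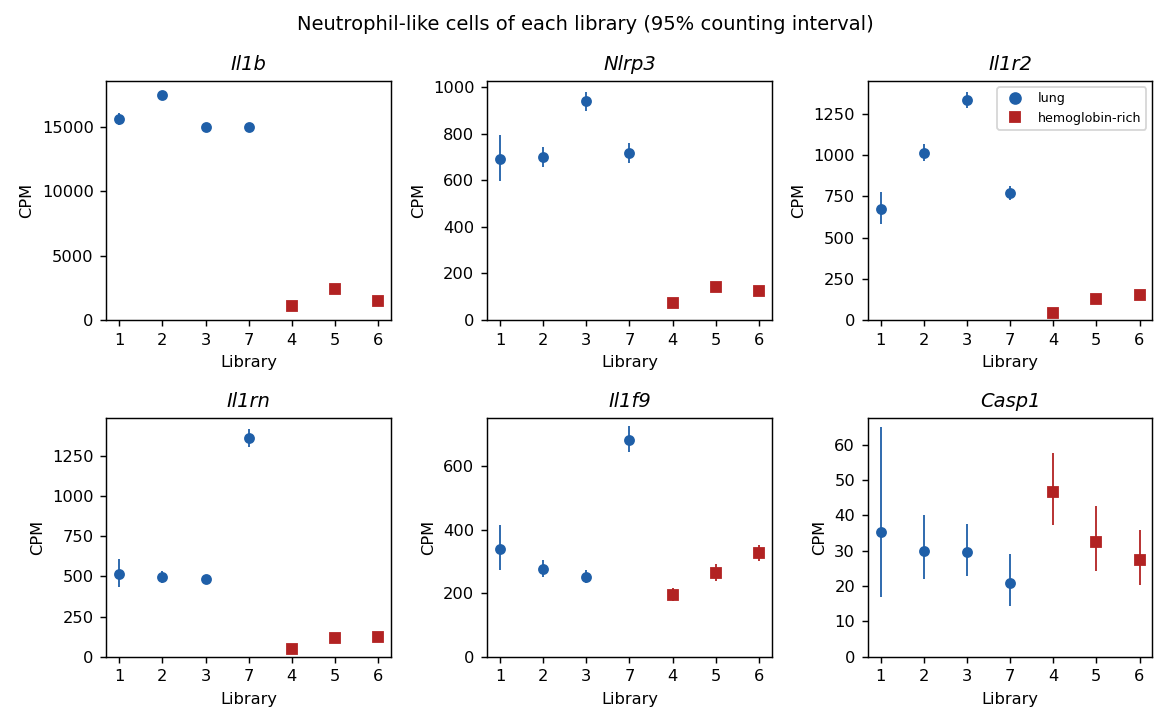
Level of Il1b, Nlrp3, Il1r2, Il1rn, Il1f9 and Casp1 in neutrophil-like cells of each of the 7 libraries, in CPM, with exact 95% Poisson intervals. Il1b is at 14946 CPM or more in the lung libraries 1, 2, 3 and 7 and at 2413 CPM or less in libraries 4, 5 and 6, while Il1f9 overlaps between both sets.

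Monocytes showed a like division for Il1b alone at this size. Monocyte-like cells had 651 CPM of Il1b in lung libraries and 61.1 CPM in hemoglobin-rich ones, where library values were 52.4, 104 and 62.3 CPM, and the pooled ratio was 10.7 (10 to 11.3). The lowest lung library was 5.67 times the highest hemoglobin-rich one, and this was 1 of the 9 members against 0.367% of genes. Nlrp3 had a ratio of 2.78 (2.55 to 3.04) and Casp1 one of 0.774 (0.721 to 0.83). Il1a, Il1b, Il1rn, Il1r2 and Nlrp3 did not overlap between the sets, 5 members against 7.78% of genes. The lowest lung and highest hemoglobin-rich values were close for Il1a (1.3 and 0 CPM), Il1rn (11.3 and 9.88 CPM) and Il1r2 (3.15 and 2.2 CPM). In classical monocytes the same 5 members did not overlap, against 9.74% of genes. In nonclassical monocytes only Il1b and Nlrp3 did not, against 5.9% of genes. For Il1b the ratio was 16.5 (15.1 to 18) in classical and 5.32 (4.9 to 5.78) in nonclassical monocytes, and the lowest lung library was 6.41 and 2.57 times the highest hemoglobin-rich one, so that the nonclassical monocytes did not reach 4-fold by that measure. Tissue, dissociation and depth cannot be told apart between the 2 sets of libraries.

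Within lung neutrophil-like cells, levels also differed by cluster. Cluster 28 of library 2 (26 cells) and cluster 20 of library 3 (57 cells) were deep, with medians of 9705 and 9557 UMIs, and had Il1b at 5759 and 5896 CPM. The largest neutrophil-like clusters of the same libraries had 19972 and 18184 CPM. Il1r2 was likewise at 301 and 607 CPM against 1167 and 1594 CPM, and Il1rn at 141 and 164 CPM against 570 and 595 CPM. Markers moved with these values. S100a8 was at 13295 and 14182 CPM against 51254 and 50740 CPM, and Adgre4, a gene of nonclassical monocytes, at 320 and 292 CPM against 6.46 and 4.2 CPM. In these small clusters 100% of cells had an Il1b UMI, and the part of other cells or doublets in these values was not tested.

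Genes with the most similar pattern were sought by the Pearson correlation of log2(CPM + 1) over 69 units, each a class in 1 library, as a description. Il1b and Nlrp3 were most like each other (r = 0.928), followed by Igsf6 for both (0.881 and 0.919). Il1f9 was nearest to Stfa1 (0.901), Il1rn to Siglece (0.896), Il1r2 to Cass4 (0.833) and Il1a to Clec5a (0.863). Il1r1 was nearest to Shroom3 (0.870) and ran against Casp1 (-0.579) and Il1b (-0.331). Casp1 was nearest to Fermt3 (0.851), and Il18 had no close match, with Naaa at 0.689. The units share libraries, depth and cell lineage.

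Some members are overlapped by another gene of the matrix on the opposite strand. The antisense gene Il1bos touches an exon of Il1b but had 129 UMIs against 140745. Bco2 touches an exon of Il18 with 316 UMIs against 15914, and Gm16894 touches one of Il1r2 with 47 against 7633. Reads in these stretches could be told apart only where the counting used strand.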

How the data were processed

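The authors deposited 1 matrix of raw UMI counts per gene and barcode, in whole numbers. Per the labels and the matrix header it came from Cell Ranger (3.1.0) with STAR on mm10, and the study states that reads were down-sampled to even out libraries. The kit is version 3 in the labels and version 2 in the supplementary methods. From the counts, barcodes with at most 10% of UMIs in 13 mitochondrial genes were kept. Each library was clustered by itself (2000 variable genes without members and pathway genes, 30 principal components, 20 neighbors, Leiden at a resolution of 0.8) with leidenalg 0.10.2, igraph 0.11.9, scikit-learn 1.9.0, scipy 1.17.1, pandas 2.3.3 and numpy 2.4.6 under Python 3.11.15. Scrublet ran through scanpy 1.11.5, and figures used matplotlib 3.10.9. Clusters were named by markers with at least 3 markers in 10% of cells, read against the 10 leading genes found in at least 25% of cells. This scoring rule was settled once clusters had been seen, and the members and lists were chosen with earlier results of these data known. A class needed 20 cells in a library to enter a 4-fold comparison. UMIs were summed by class and library, thinning went to 1000 UMIs, and a count of 0 was read as up to 3 counts. All members were named, with pathway genes past the fold. The plan also held partners by role and the 3 most similar genes per member, and only part of these is given. The partners Il18bp, Nek7 and P2rx7 are left out. Steps were tested on simulated data. Alternatives changed the filter, fold, clustering, depth, doublets and libraries. Promoter windows came from RefSeq (GRCm38.p6).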

Additional observations from a re-analysis of the deposited data

Results flagged for a closer look

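Barcodes above the mitochondrial limit entered no comparison, yet all 9 members had counts there. In the 3488 such barcodes of the lung libraries (12179332 UMIs) a count of 0 would allow up to 0.246 CPM. Il1b was at 226 CPM in these barcodes and 704 CPM in kept lung barcodes, and Il1r2 at 11.1 and 38.2 CPM. Il1f9 was at 1.64 and 12.8 CPM and Nlrp3 at 32.9 and 71.6 CPM. These 4 genes were thus lower in the removed barcodes. So were Il1rn, at 64.3 and 84 CPM, Il1a, at 14.5 and 21 CPM, Il18, at 45.1 and 79.7 CPM, and Casp1, at 18.4 and 30.9 CPM. Il1r1 alone was higher in the removed barcodes, at 18 against 14.9 CPM.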

How the results depend on the processing

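No paired analysis was possible because the barcodes carry none of the replicate numbers of the labels. Each class was set against other cells of the same library. Neutrophil-like cells were high for 5 members in the main analysis and for 4 under 5 alternatives. Il1rn was lost at a fold of 8, with the mean over cells, with lung libraries clustered together and without the Ccl4-led cluster of library 7. Nlrp3 was lost when all libraries were required. Macrophage-like cells were high for 1 member, for 0 at a fold of 8, and, leaving out each library in turn, for 1 to 3, the 3 without library 7, where Il1a and Il1rn joined Il18. Stromal-like cells were high for 1 member, and for 0 at a fold of 8, after thinning to 1000 UMIs, or with a gate on each cell in place of clusters. The causes were not tested. Of 153 values of the members called high, 80 stayed within their counting interval, 31 were higher, 42 lower and 0 reversed. Of these, 6 moved by over 1.5 times. The 80 include all values under the changed folds and the low-count filter, which could not alter a ratio. With all libraries, macrophage-like and stromal-like values could not change either, since the hemoglobin-rich libraries held neither class. On the log2 scale Il1rn went from 3.51 to 2.50 with lung libraries clustered together and 2.82 without the Ccl4-led cluster. Il1f9 went from 7.72 to 6.11 with lung libraries clustered together, 6.51 at a resolution of 0.4, 6.88 over all libraries and 8.42 without library 2. Depth limits the low values, such as Il1r1 in neutrophil-like cells with 9 UMIs.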

Other observations

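A cluster of 83 cells in library 1 (median 646 UMIs) led by Retnlg was left unnamed. It had Il1b at 2576 CPM (2249 to 2938), Il1rn at 1640 CPM (1382 to 1934), Nlrp3 at 266 CPM and Il1r2 at 196 CPM. In library 4 an immature neutrophil-like class of 112 cells had Il1b at 92.6 CPM (75.3 to 113), against 1073 CPM in the neutrophil-like cells of that library, with Il1f9 at 105 CPM, Il1rn at 63.9 CPM and Nlrp3 at 8.33 CPM.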
